A study of Mus musculus with 6 samples.

Results

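The COPII coat genes and the Sar1 GTPases were examined in platelet RNA of mice with and without developing leukemia. The 10 genes were taken by symbol (Sec23a, Sec23b, Sec24a, Sec24b, Sec24c, Sec24d, Sec31a, Sec13, Sar1a and Sar1b), and all 10 were found among the 14975 genes of the deposited table. The set was selected on the FPKM of these same libraries, control against pre-AML, with earlier results in view, and the difference between the groups in these genes is therefore given as a description. Platelets of 3 control and 3 pre-AML libraries, numbered from 1 in each group (values are given in the order of these numbers), were sequenced after depletion of CD45 and Ter119 positive cells and amplification with SMART-Seq2. The sample labels give a C57BL/6 background for every library and name the genotypes WT and AML. The labels do not say whether WT mice were irradiated. The libraries are taken here as the transplanted controls and the pre-AML mice from which the paper's text describes platelet RNA-seq, an assumption. On it, both groups were irradiated. Control mice received normal bone marrow cells, whereas pre-AML mice received cells transformed with the MLL-AF9 oncogene. The pre-AML mice were studied 1 week after transplantation. In the methods, primary recipients were given hematopoietic stem and progenitor cells after retroviral transduction with MLL-AF9. Secondary recipients were given GFP positive cells taken from primary recipients. The methods give female mice of 8 to 12 weeks. Irradiation was sub-lethal for secondary recipients, so blood-forming cells of the host can persist in them. The paper names sub-lethal irradiation for the mice at 1 week. The series text speaks of 2 replicates per group and of 3 to 4 pooled mice per library, whereas 3 libraries per group were deposited. P-values therefore measure the spread between these libraries only.

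COPII vesicles carry newly made secretory and membrane proteins from the endoplasmic reticulum (ER) to the Golgi. Sar1 is a small GTPase that, once loaded with GTP, inserts into the ER membrane and recruits the inner coat, a dimer of Sec23 and Sec24. Sec23 activates the GTPase of Sar1, Sec24 binds the cargo, and the outer coat of Sec13 and Sec31 forms a cage around the bud. Mammals have paralogs at several of these positions. In humans, mutations of SEC23B cause congenital dyserythropoietic anemia type II, and mutations of SAR1B cause chylomicron retention disease. Platelets have no nucleus, and their RNA is inherited from the megakaryocyte, where integrins, glycoproteins and many granule proteins are exported from the ER.

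The promoters of the 4 most abundant genes, which are on different chromosomes, are shown first. Each sequence runs 5′ to 3′ on the strand of its gene, from 250 bases before the RefSeq start to 20 bases after it (GRCm38.p6). Sar1b lies at chr11:51763413-51763682 on the plus strand, Sec13 at chr6:113740662-113740931 on the minus strand, Sar1a at chr10:61680035-61680304 on the plus strand and Sec23a at chr12:59011998-59012267 on the minus strand. Capitals mark CCGGAAG, the core of binding sites of ETS factors, CCACGTC, which holds the ACGT core bound by bZIP factors of the ER stress response, and CACGTG, all in either orientation.
Sar1b: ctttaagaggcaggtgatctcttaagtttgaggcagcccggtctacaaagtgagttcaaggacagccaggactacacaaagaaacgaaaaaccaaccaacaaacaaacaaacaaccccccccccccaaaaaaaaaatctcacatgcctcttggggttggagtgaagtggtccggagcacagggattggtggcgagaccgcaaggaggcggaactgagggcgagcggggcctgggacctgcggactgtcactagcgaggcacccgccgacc
Sec13: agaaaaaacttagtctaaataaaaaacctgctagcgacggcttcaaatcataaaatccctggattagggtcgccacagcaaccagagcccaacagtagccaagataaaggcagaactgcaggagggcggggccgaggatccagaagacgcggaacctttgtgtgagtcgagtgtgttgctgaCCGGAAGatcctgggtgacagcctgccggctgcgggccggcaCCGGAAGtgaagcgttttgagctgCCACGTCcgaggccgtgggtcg
Sar1a: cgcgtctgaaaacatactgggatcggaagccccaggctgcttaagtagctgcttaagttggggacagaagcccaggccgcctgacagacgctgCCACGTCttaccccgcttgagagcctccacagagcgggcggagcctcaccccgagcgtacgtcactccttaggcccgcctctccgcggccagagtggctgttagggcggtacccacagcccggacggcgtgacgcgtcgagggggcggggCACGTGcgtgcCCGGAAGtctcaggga
Sec23a: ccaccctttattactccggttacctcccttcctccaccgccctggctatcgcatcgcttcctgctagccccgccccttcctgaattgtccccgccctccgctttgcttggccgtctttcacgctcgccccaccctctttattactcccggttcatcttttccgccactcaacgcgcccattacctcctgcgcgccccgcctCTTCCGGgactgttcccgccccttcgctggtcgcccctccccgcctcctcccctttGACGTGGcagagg
Windows from 250 bases before to 50 after the start were searched on both strands. For each gene 1 window was searched, the nearest to the RefSeq gene start, although Sec23b and Sec31a had 2. The window lay 2695 bases from that start for Sec24d, 692 for Sec24b and 327 for Sec24a, and at most 39 for the other genes. CCACGTC was found in 5 of the 10 genes, namely Sec13, Sar1a, Sec23a, Sec24c and Sec24d, and in 2.42% of all 32851 RefSeq windows. CCGGAAG was found in 6 of the 10, namely Sec13, Sar1a, Sar1b, Sec23a, Sec24c and Sec31a, and in 8.86% of all windows. In Sar1b its 1 match starts at base 20 after the start and runs past the stretch shown, and CCACGTC was not found in the window. CCACGTC and CACGTG share 5 letters, CACGT, but differ in the letter that follows, so the same ACGT core cannot match both. The only CACGTG among the 10 genes was in Sar1a, against 7.15% of all windows. Of the other motifs searched, AGATAA, bound by GATA factors, was found in Sec13 alone, against 11.2% of all windows. The RUNX motif TGTGGT was found in Sec23b and Sec24c, against 16.8% of all windows. The CCAAT box was found in Sec23b, Sec24d and Sar1b, against 37.4% of all windows. The shorter CCACG, which lies within the longer motif of the bZIP factors, was found in 7 of the 10 genes and in 32.8% of all windows. The motifs were chosen after the sequences had been seen, and a match describes the sequence without showing that a factor binds.

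In control platelets the 10 genes spanned a wide range of levels, with Sar1b and Sec13 far above all others. FPKM is the number of reads per kilobase of gene, scaled to the size of the library, so levels of different genes can be compared per length. Sar1b (Entrez gene 66397; chromosome 11, 51763687 to 51791925, plus strand, GRCm38) had 48.6, 50.6 and 43.7 FPKM in the controls. Its mean of 47.6 ± 3.52 FPKM (SD, n = 3) ranked 576 among the 14975 genes. Sec13, the smaller outer coat subunit, which also serves in nuclear pores (Entrez gene 110379; chromosome 6, 113728062 to 113740743, minus strand), had 35.8, 32.0 and 35.0 FPKM in the controls and ranked 731. The lowest control value of Sar1b was above the highest of Sec13.

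The next genes were Sar1a (Entrez gene 20224; chromosome 10, 61680299 to 61693297, plus strand) at 6.74 ± 0.507 FPKM (SD, n = 3) and Sec23a (Entrez gene 20334; chromosome 12, 58958383 to 59012017, minus strand) at 3.78 ± 0.190 FPKM (SD, n = 3) in control platelets. Sec24c, Sec23b, Sec24b and Sec31a followed, with control means of 1.01, 0.777, 0.721 and 0.459 FPKM. Sec24d was at 0.152 FPKM and Sec24a at 0.0266 FPKM, the lowest of the set, at rank 11518 of all genes. Neighbours in this order did not overlap in the controls down to Sec23b. The ranges of Sec23b and Sec24b, of Sec24b and Sec31a, and of Sec31a and Sec24d overlapped, and their order is not resolved by these libraries. Sec24d was above Sec24a in every control. In pre-AML platelets the order was the same except that Sec13 had the higher mean over Sar1b and Sec24b over Sec23b, with overlapping ranges in both pairs.

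**Figure D1:**
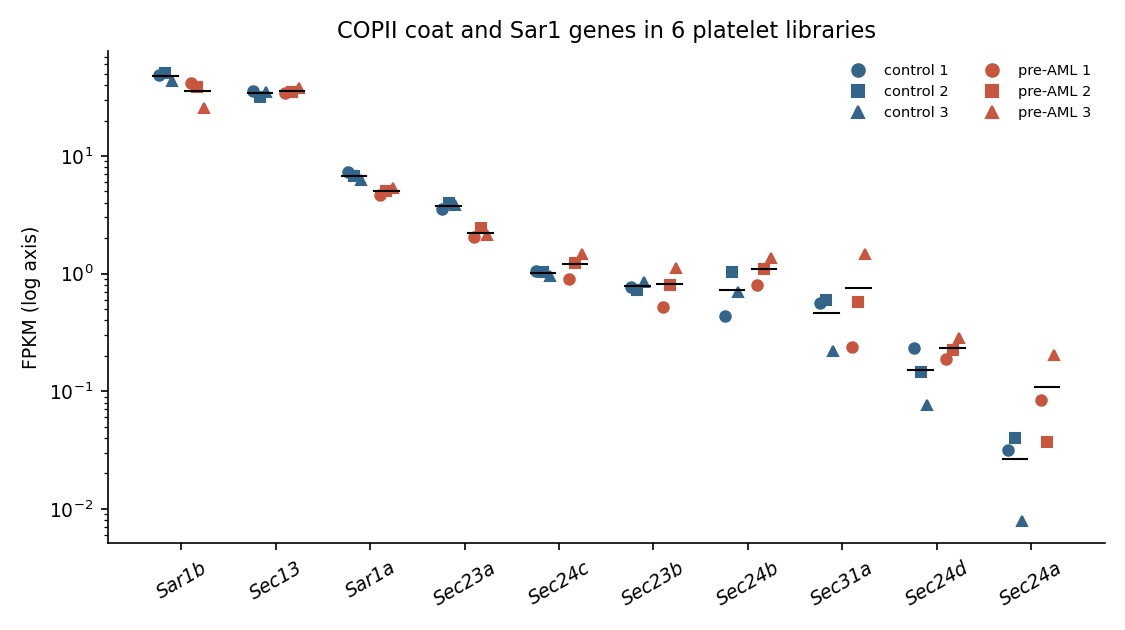
FPKM (log axis) of the 10 genes in 3 control (blue) and 3 pre-AML (red) libraries, ordered by control mean. Symbols mark the library number and black lines the group mean. Sar1b and Sec13 lie above 25 FPKM in every library, and the Sec24 genes lie below 1.5 FPKM.

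The depth behind these levels was uneven. The recovered reads on all listed genes, taken from the steps in the FPKM values, were between 11935973 and 17778882 per library. Sar1b had between 653 and 893 reads per library and Sec13 between 695 and 1459. The reads of Sec23a were 203, 269 and 219 in the controls and 132, 179 and 240 in the pre-AML libraries. At the low end, Sec24a had 4, 6 and 1 reads in the controls and 12, 6 and 51 in the pre-AML libraries, so that its control level rests on 11 reads in all. Sec24d had between 4 and 29 reads per library. On Sec24a, 3 reads correspond to 0.0236 FPKM in control 3, and its value there, 0.00787 FPKM, was below this level.

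Compared with controls, pre-AML platelets had lower FPKM of Sec23a, Sar1a and Sar1b in all 3 libraries, while Sec13 had a control mean of 34.3 ± 2.03 and a pre-AML mean of 35.8 ± 1.55 FPKM (SD, n = 3 each). In bulk RNA, fewer cells of a type and less RNA per cell cannot be told apart. Sec23a, the GTPase activating subunit of the inner coat, had 3.57, 3.95 and 3.80 FPKM in the controls and 2.05, 2.45 and 2.13 FPKM in pre-AML platelets. All 3 pre-AML libraries were below all controls, and the control mean was 1.71 times the pre-AML mean. On the log2(FPKM + 1) scale, the difference of Sec23a was -0.57 with a standard error of 0.14.

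Sar1a, a GTPase that starts coat assembly, had 7.26, 6.73 and 6.24 FPKM in the controls and 4.66, 5.07 and 5.39 FPKM in the pre-AML libraries. Its groups did not overlap, and the difference was -0.36 (standard error 0.13) on the log2(FPKM + 1) scale. Scaled to the recovered reads of each library in place of the deposited scaling, Sar1a had overlapping groups, with a difference of -0.24. On that scale Sec23a and Sar1b were still apart, as 9.77% of all genes tested were with lower pre-AML values.

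Sar1b, the abundant Sar1 paralog, was measured at 41.4, 38.9 and 25.8 FPKM in pre-AML platelets, each below the lowest control at 43.7 FPKM. Pre-AML 3 had the lowest value. The difference of Sar1b was -0.44 (standard error 0.19) with all libraries and -0.24 without pre-AML 3. For Sec23a and Sar1a it was -0.56 and -0.40 without pre-AML 3.

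The pre-AML values of Sec13 were 34.5, 35.2 and 37.5 FPKM, a range that overlapped with that of the controls. The difference of Sec13 was 0.061 (standard error 0.13), or 0.027 without pre-AML 3, 0.013 without control 2 and 0.092 without control 1. Scaled to the recovered reads it was 0.19, with overlapping groups, and with limma-voom 0.17, so it depends on the scaling. Sec24c, a cargo binding subunit, had 1.04, 1.03 and 0.961 FPKM in the controls and 0.908, 1.23 and 1.46 FPKM in the pre-AML libraries. Its difference was 0.12 (standard error 0.18), or 0.038 without pre-AML 3 and 0.22 without pre-AML 1, and the pre-AML libraries lay on both sides of the controls.

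These were the 5 members with a mean of at least 1 FPKM over the 6 libraries, the level from which genes were tested. In limma-trend over all 4412 genes tested, 0 of the 5 had an adjusted p under 0.05 after Benjamini-Hochberg adjustment, with adjusted p between 0.522 and 0.855. Over all genes tested the share called was 0.0227% for higher and 0% for lower levels in pre-AML platelets. At an unadjusted p under 0.05, 3 members (Sec23a, Sar1a and Sar1b) were lower and 0 were higher, where 6.53% of all genes tested were lower and 2.56% higher. Limma-voom on the recovered reads also called 0 of the 5, and 2 were lower at an unadjusted p under 0.05, as were 5.94% of all genes, with 5.34% higher. The groups did not overlap, with lower pre-AML values, for 3 of the 5 members and for 12.8% of all genes tested, and with higher values for 0 of the 5 and for 6.14%. Among these 5 the median log2 fold change was -0.36, against -0.055 over all genes tested. Over all 10 members, with no filter on low values, the median turned to 0.080, and to 0.13 with a pseudocount of 0.1 as well. Since this contrast was in view when the genes were named, nothing is read from these shares.

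The levels of genes also moved with the base composition of their transcripts, differently in the groups. Across 4397 tested genes, the Spearman correlation of a gene's deviation from its mean with its GC content was between -0.40 and -0.30 in the controls and at -0.046, 0.31 and 0.49 in the pre-AML libraries. The genes are not independent replicates, and the correlation describes each library. The GC content of the longest transcript was 42.4% for Sec23a, 42.8% for Sar1b and 47.0% for Sar1a, and it was 49.3% for Sec13 and 52.1% for Sec24c. Of the members below the level for testing, Sec23b had the lowest GC content of all 10, at 41.2%, and Sec24a had 43.7%. Neither had a lower mean in pre-AML platelets with all libraries. Without pre-AML 3 the pre-AML mean of Sec23b was 0.662 FPKM, below its control mean of 0.777 FPKM. The control level of Sec24a rests on 11 reads. The part of GC content in the levels of Sec23b and Sec24a was not tested. After the dependence on gene length and on GC content had been removed library by library, the differences were -0.35 for Sec23a, -0.27 for Sar1a, -0.25 for Sar1b, 0.056 for Sec13 and 0.099 for Sec24c. The groups still did not overlap for Sec23a, Sar1a and Sar1b on this scale, as for 8.28% of all genes tested, and none of the 5 was higher without overlap, against 4.94%. Removing both the trends and pre-AML 3 left -0.42 for Sec23a, -0.33 for Sar1a and -0.12 for Sar1b.

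**Figure D2:**
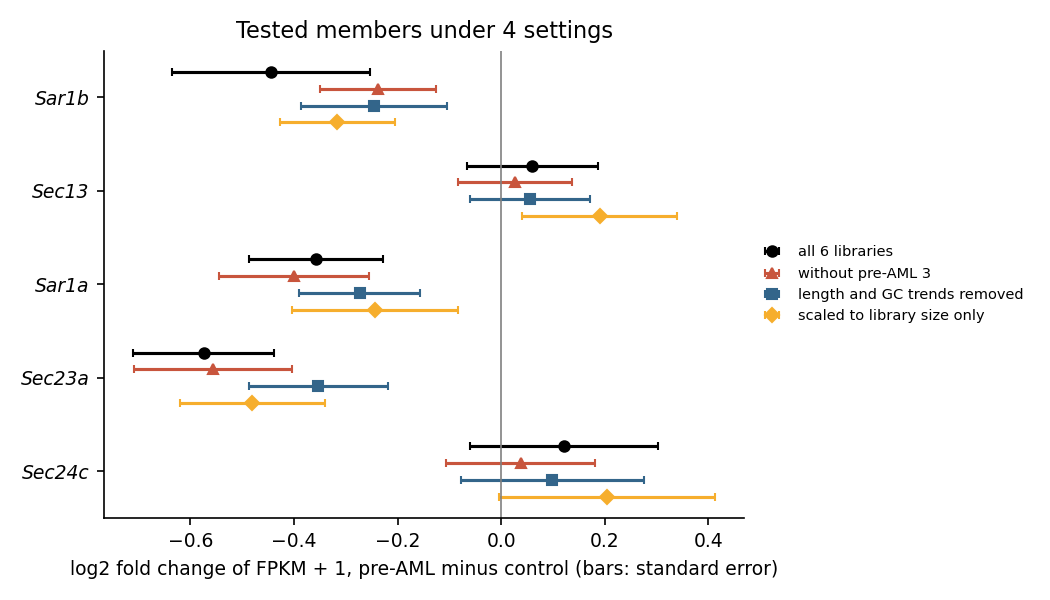
Log2 fold change of FPKM + 1 (pre-AML minus control) of the 5 tested members, with standard errors as bars, for all 6 libraries, without pre-AML 3, with length and GC trends removed, and with scaling to library size only. Sec23a, Sar1a and Sar1b are below 0 under these 4 settings, and Sec13 and Sec24c are above 0.

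The other 5 members were below the level for testing, and their groups overlapped. Sec23b, the second Sec23, had 0.771, 0.722 and 0.840 FPKM in the controls and 0.525, 0.799 and 1.12 FPKM in the pre-AML libraries. Sec24b had 0.439, 1.03 and 0.698 FPKM in the controls and 0.799, 1.10 and 1.36 FPKM in the pre-AML libraries. Sec31a, the larger outer coat subunit, had 0.558, 0.599 and 0.220 FPKM in the controls and 0.239, 0.571 and 1.46 FPKM in the pre-AML libraries. In all 3 genes the highest value was in pre-AML 3.

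The same held for Sec24d, with 0.283 FPKM in pre-AML 3 and at most 0.233 FPKM elsewhere, and for Sec24a, with 0.205 FPKM in pre-AML 3 and at most 0.0844 FPKM elsewhere. Of the 10 members, 7 had their highest FPKM in pre-AML 3, among them Sec13 and Sec24c, whereas Sar1b had its lowest there. No member was higher in pre-AML platelets without overlap of the groups, a pattern seen in 7.53% of all 14975 genes, and 3 of the 10 were lower without overlap, against 5.74%. With scaling to the recovered reads, 9.46% of all genes were higher without overlap. The pre-AML mean of Sec31a was 0.757 FPKM with pre-AML 3 and 0.405 FPKM without it, which is below the control mean of 0.459 FPKM.

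Pre-AML 3 also held transcripts of leukocytes. Summed over 9 B cell markers in the table, the level was between 1.46 and 1.88 FPKM in the controls, 0.881 and 19.6 FPKM in pre-AML 1 and pre-AML 2, and 228 FPKM in pre-AML 3, led by Cd74 at 168 FPKM and Cd79b at 23.2 FPKM. Of these markers, 8 of 9 were above all controls in pre-AML 3. For monocytes and macrophages, 12 of 14 markers were above all controls in pre-AML 3. Their sum, led by Lyz2 and Fcer1g, was between 4665 and 5317 FPKM in the controls and at 5443 FPKM in pre-AML 3. Lyz2 had 3093 FPKM there against at most 2615 FPKM in the controls, whereas Fcer1g had 1867 FPKM there against at least 2280 FPKM. For T and NK cells, 11 of 12 markers were above all controls in pre-AML 3, and 8 of 12 in all 3 pre-AML libraries. That last pattern was seen in 7.53% of all 14975 genes. Their sums were between 19.1 and 29.1 FPKM in the controls. In the pre-AML libraries the sums were 38.4, 34.5 and 46.5 FPKM, led by Nkg7 and Gzma. Nkg7 had 22.9, 28.2 and 18.9 FPKM in the controls and 25.2, 27.9 and 22.6 FPKM in the pre-AML libraries. Gzma had 0, 0.353 and 0 FPKM in the controls and 7.25, 4.61 and 8.90 FPKM in the pre-AML libraries. Gzma was the 1 gene of all tested past the threshold (limma-trend, adjusted p 0.0081). For plasma cells, which have an extended ER, 4 of 7 markers were above all controls in pre-AML 3. Their sum was between 3.84 and 4.07 FPKM in the controls and 10.7 FPKM in pre-AML 3, led by Xbp1 and Mzb1. Xbp1 had between 2.54 and 3.13 FPKM in the controls and 5.04 FPKM in pre-AML 3. Mzb1 had at most 0.0521 FPKM in the controls and 3.91 FPKM in pre-AML 3.

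Neutrophil markers summed to between 3.19 and 3.66 FPKM in the controls and to 4.998, 2.18 and 2.60 FPKM in the pre-AML libraries, led by S100a8 and Mmp8. Of the 11 neutrophil markers in the table, 4 (Ly6g, Mpo, Elane and Retnlg) were at 0 in all controls. Neutrophil markers at 0 numbered 7, 7 and 5 in the controls and 3, 4 and 5 in the pre-AML libraries. All controls were also at 0 for 2 of 14 monocyte and macrophage markers, Cd14 and Clec4n, and for 1 of 9 B cell markers, Pax5. The same held for 1 of 7 plasma cell markers, Irf4, and 3 of 12 T and NK cell markers, Cd3g, Cd2 and Ncr1. Erythroid markers, led by Hba-a1 and Hbb-bt, summed to between 2365 and 2665 FPKM in the controls and to 2999, 2896 and 2386 FPKM in the pre-AML libraries. Platelet markers, led by Pf4 and Ppbp, were present in every library, with sums between 89947 and 113995 FPKM in the controls, 91005 and 92371 FPKM in pre-AML 1 and pre-AML 2 and 61423 FPKM in pre-AML 3. All marker sums are on the deposited scaling, which divides by 1.31 times the recovered reads in pre-AML 3 and 0.983 to 1.01 times in the others. The place of pre-AML 3 against the controls can therefore depend on the scaling. The part of leukocyte RNA in the levels of Sec23b, Sec24a, Sec24b, Sec24d and Sec31a in pre-AML 3 was not tested.

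Paralogs were compared within each library, where a share does not depend on how the library was scaled. Sar1b made up 87.0%, 88.3% and 87.5% of the summed FPKM of Sar1a and Sar1b in the controls, and 89.9%, 88.5% and 82.7% in pre-AML platelets. The groups overlapped, with means of 87.6% ± 0.628 and 87.0% ± 3.80 (SD, n = 3 each). Sar1b was the major paralog in both groups, while the sum of both paralogs averaged 54.4 ± 3.88 FPKM in the controls and 40.4 ± 8.08 FPKM in pre-AML platelets (SD, n = 3 each). The FPKM of Sar1b was between 4.79 and 8.89 times that of Sar1a. In reads the ratio was between 1.68 and 3.12, since the gene length was 1255 bases for Sar1b and taken as 3580 bases for Sar1a. The length of Sar1a is the shortest that gave whole reads, and the ratio in reads depends on it. Of all stretches of 50 bases in the transcripts of Sar1a and Sar1b (GENCODE M21), 0 occurred in a transcript of any other gene, so reads of this length can be told apart.

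Sec23a was the major Sec23 paralog, and its share did not overlap between the groups. It was 82.3%, 84.6% and 81.9% in the controls and 79.6%, 75.4% and 65.4% in pre-AML platelets. The pre-AML libraries were all below the controls, with means of 82.9% ± 1.44 and 73.5% ± 7.28 (SD, n = 3 each), and pre-AML 3 was the farthest. The FPKM of Sec23a was 4.64, 5.47 and 4.53 times that of Sec23b in the controls and 3.91, 3.07 and 1.89 times in the pre-AML libraries. Per length of the longest coding transcript in place of the length behind the FPKM values, the ratio was between 2.35 and 2.84 in the controls and between 0.984 and 2.03 in pre-AML platelets, so with these lengths Sec23a was not the major paralog in pre-AML 3. Sec23a shares 431 exonic bases with the antisense gene Gm17529, and Sec24c shares 214 with 6230400D17Rik, both on the opposite strand. SMART-Seq2 does not mark strand, so the reads in these stretches cannot be assigned to one gene.

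Among the Sec24 paralogs, which bind different cargo signals and fall into the pairs Sec24a with Sec24b and Sec24c with Sec24d, Sec24c and Sec24b together made up most of the level. The share of Sec24c in the summed FPKM was 53.6% ± 7.05 in control and 45.8% ± 1.68 in pre-AML platelets, and that of Sec24b was 37.0% ± 10.7 and 41.3% ± 1.02 (SD, n = 3 each). Sec24d had 8.07% ± 4.67 and 8.92% ± 0.508, and Sec24a 1.35% ± 0.782 and 3.96% ± 2.39 (SD, n = 3 each). The groups overlapped for all 4 genes. In each pair, one gene held most of the level. The summed FPKM of the Sec24 family was 1.91 ± 0.286 in control and 2.63 ± 0.663 in pre-AML platelets (SD, n = 3 each), and the means of the Sec23 family were 4.55 ± 0.181 and 3.02 ± 0.389. The Sec24 sum was the lower one except in pre-AML 3, where it was 3.30 FPKM against 3.25 FPKM for Sec23.

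**Figure D3:**
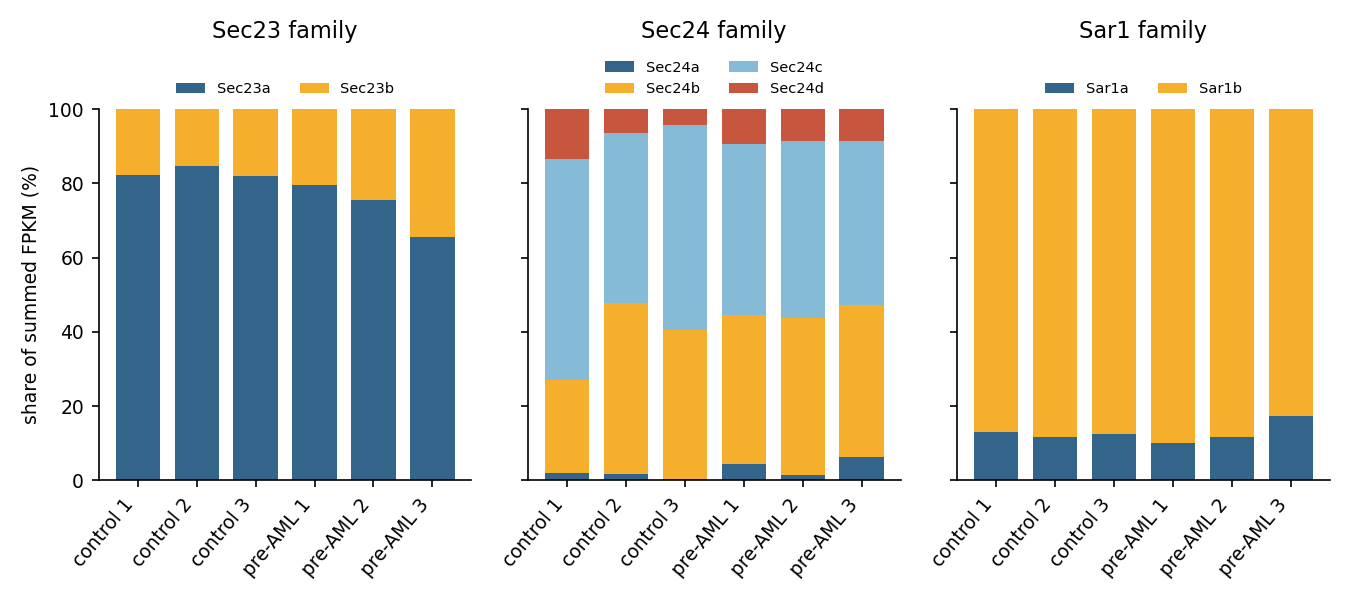
Share of each paralog in the summed FPKM of its family (%), for each of the 6 libraries. Sec23a has 81.9% or more in the controls and between 65.4% and 79.6% in the pre-AML libraries, Sar1b stays between 82.7% and 89.9%, and Sec24b and Sec24c make up most of the Sec24 family in every library.

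The outer coat subunits, which act together in a cage, differed widely in level. The FPKM of Sec13 was between 25.7 and 159 times that of Sec31a over the 6 libraries, and the ratio was similar per length of the longest coding transcript, between 25.1 and 155. The gene lengths behind these FPKM were taken as 1668 bases for Sec13 and 5341 bases for Sec31a, the shortest that gave whole reads. The exon unions are 3184 and 7884 bases, and the ratio per length of the longest coding transcript depends on this choice. Sec31b, the second Sec31 gene of mice, was listed in the table with at most 0.0900 FPKM.

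Other genes of transport between the ER and the Golgi were taken from 4 lists set by function. Of their genes 57 were tested, and 36 of these lay below 0 on the log2 scale, as did 58.5% of all genes tested. With scaling to the recovered reads, 27 of the 57 and 42.4% of all genes tested lay below 0. In limma-trend with Benjamini-Hochberg adjustment over all genes, 0 of the 57 passed the threshold, beside 0.0227% of all genes, and at an unadjusted p under 0.05 1 was higher and 4 were lower, beside 2.56% and 6.53% of all genes tested. Limma-voom also called 0, with 3 higher and 3 lower at an unadjusted p under 0.05, beside 5.34% and 5.94% of all genes.

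The COPII regulators had 3 tested genes of 13 and a median log2 fold change of -0.15. The highest were Pdcd6, a calcium binding protein that attaches to Sec31a, with a control mean of 12.97 ± 1.23 and a pre-AML mean of 11.6 ± 0.819 FPKM, Trim69, a ubiquitin ligase, at 2.66 ± 0.194 and 1.82 ± 0.597 FPKM, and Tfg, which organizes ER exit sites, at 1.73 ± 0.215 and 2.06 ± 0.433 FPKM (SD, n = 3 each). The 20 tested cargo receptors and their partners had a median of -0.12, with 7 above and 13 below 0. Bcap31, an ER membrane protein that escorts membrane cargo, was the most abundant of the 4 lists, at 1164 ± 87.0 and 974 ± 165 FPKM (SD, n = 3 each). Surf4, a receptor for soluble cargo, had 46.6 ± 7.18 and 40.0 ± 4.48 FPKM, and Ergic3 31.6 ± 7.77 and 28.7 ± 2.49 FPKM (SD, n = 3 each).

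For the COPI coat, which carries proteins back from the Golgi to the ER, the 14 tested genes had a median of 0.010, with 7 on each side of 0. Arf1, the GTPase that recruits COPI as Sar1 recruits COPII, had a control mean of 88.2 ± 2.62 and a pre-AML mean of 83.2 ± 2.45 FPKM, Arf5 70.3 ± 7.53 and 74.8 ± 8.17 FPKM, and the coat subunit Copz1 68.0 ± 1.86 and 60.8 ± 5.62 FPKM (SD, n = 3 each). The 20 tested tethers and SNAREs had a median of -0.15. Rab1b, a GTPase of ER to Golgi transport, had 44.8 ± 3.22 and 48.9 ± 4.78 FPKM, Trappc6a of the TRAPP tethering complex 32.2 ± 3.08 and 40.3 ± 1.14 FPKM, and Trappc4 of the same complex 34.3 ± 2.78 and 29.3 ± 6.25 FPKM (SD, n = 3 each). In adjusted p, these 12 named genes were between 0.522 and 0.817 (limma-trend with Benjamini-Hochberg adjustment).

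**Figure D4:**
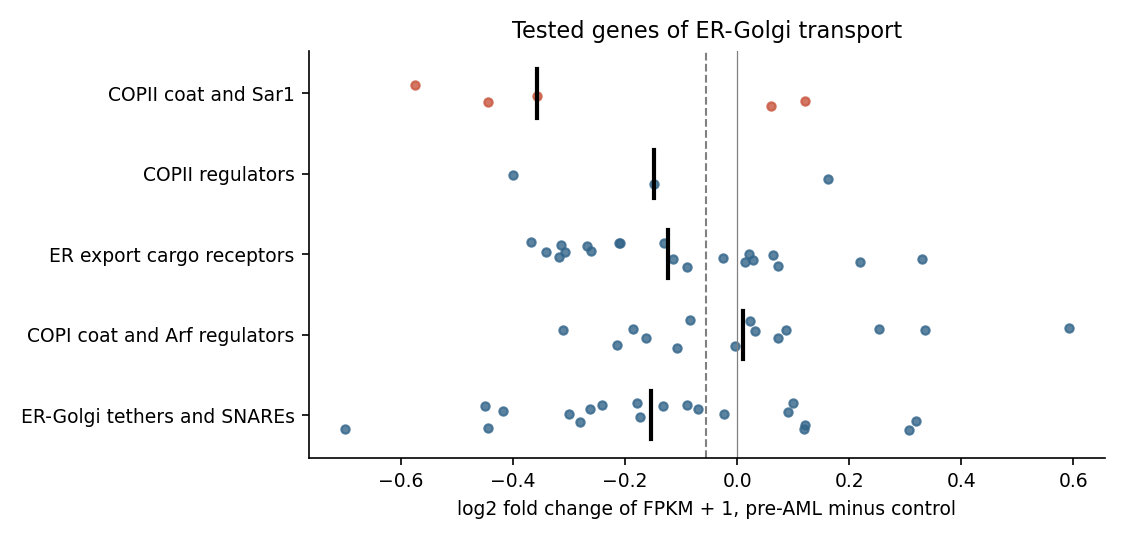
Log2 fold change of FPKM + 1 (pre-AML minus control) of the tested COPII coat and Sar1 genes (red) and of the 4 other lists (blue). Each point is a gene, black bars are list medians and the dashed line is the median of all genes tested, at -0.055. The COPII coat and Sar1 genes lie in a lower group of 3 and an upper group of 2, and points of every other list lie on both sides of 0.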

How the data were processed

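Alignment by the authors was to mm10, with STAR, and DESeq2 is also named in the labels. The authors deposited FPKM values of 14975 genes in 6 libraries. The counting program and annotation are not given in the sources used here. Each column was matched to its sample by name. Gene lengths were unions of exons in GENCODE M21 (GRCm38), found for 14909 genes, and 86.3% of the values were whole reads within 0.02 reads or a relative 0.0001. For Sec13, Sar1a, Sec24d and Sec31a, which were not whole, the shortest length with whole reads in all libraries was used, a choice made after seeing the data, and their read numbers depend on it. The deposited scaling divides by 1.31 times the recovered reads in pre-AML 3 and by 0.983 to 1.01 times in the others.

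Differences were tested with limma-trend (limma 3.58.1, R 4.3.3) on log2(FPKM + 1), which understates changes of low genes, for genes averaging 1 FPKM or more, without covariates, with a threshold of 0.05 on the adjusted p. The fit was also run on simulated counts. Their changes were larger than those of the members and they had no GC trend, so that run does not bear on the calls for the members. FPKM values are not counts, so limma-voom on recovered reads was an alternative only. Alternatives were a pseudocount of 0.1, no filter, library size only, quantile normalization, loess removal (span 0.5) of length and GC trends, the replicate block and leaving out each library. The COPII members and all lists were chosen with earlier results of these data known. Named genes were all members, the 3 most abundant genes of each pathway list, the 2 most abundant of each marker list, and the 3 genes closest in profile to the most abundant member. Cnih1, Uso1, Rab1a and Trappc2 were named after their values were seen. Promoter sequences are from RefSeq (GRCm38.p6), which held all 10 members. Figures were drawn with matplotlib 3.10.9 (Python 3.11.15).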

Additional observations from a re-analysis of the deposited data

How the results depend on the processing

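No member passed the threshold under any alternative, where between 5 and 10 members were tested, and no gene of the 4 pathway lists did. All genes past the threshold numbered 1, and 0 with no filter, with library size only, with limma-voom, and with a pseudocount of 0.1 and no filter, and between 0 and 2 when one library was left out, with 2 also when the length and GC trends and pre-AML 3 were removed. The median log2 fold change of the members was -0.36. It was -0.24 with library size only, -0.25 with length and GC trends removed, -0.30 with limma-voom and between -0.41 and -0.24 when one library was left out. Leaving out pre-AML 3 gave the -0.24, and together with the removal of the trends it gave -0.12. Without a filter the median was taken over all 10 members and was 0.080, or 0.13 with a pseudocount of 0.1 as well, since the 5 added members had log2 fold changes above 0. Sec23a, Sar1a, Sar1b, Sec13 and Sec24c kept their sign in every setting. The differences were between -0.75 and -0.35 for Sec23a, -0.41 and -0.24 for Sar1a, -0.57 and -0.12 for Sar1b, 0.013 and 0.19 for Sec13 and 0.0084 and 0.37 for Sec24c. Library size only moved the median of all genes tested from -0.055 to 0.051.

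Paralog shares moved with the length used. As shares of recovered reads, Sec23a had 78.8% in controls, Sec24b 40.2% in pre-AML, and Sar1b 71.2% in controls and 70.4% in pre-AML. With the longest coding transcript, Sec23a had 71.6% in controls and 59.3% in pre-AML, Sec24b 37.4% in pre-AML and Sar1b 84.3% in controls.

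The deviations from the group mean of libraries with the same number had correlations of -0.043, -0.12 and -0.17. Within each group these deviations sum to 0, so the correlations are tied to one another. They cannot tell whether the numbers pair the libraries. With the replicate block 0 members and 1 gene of all passed, the median of the members was -0.36 and 2 members were lower at an unadjusted p under 0.05, as were 5.76% of all genes tested. With the block and the trends removed together the median was -0.25. The trends with both removals, the fit without filter at a pseudocount of 0.1 and the longest coding transcript were chosen after seeing the data. Depth limits Sec24a and Sec24d most.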

Other observations

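The 3 genes closest in profile to Sar1b, the most abundant member, by the root mean square difference of centred log2(FPKM + 1) over the 6 libraries, were Ap4s1, Ooep and Cdc42, at 0.029, 0.032 and 0.034. Ap4s1 encodes a subunit of an adaptor complex of the trans-Golgi network, and Cdc42 a small GTPase of the actin cytoskeleton. Cdc42 had 281, 289 and 267 FPKM in the controls and 244, 221 and 152 FPKM in pre-AML platelets. Like Sar1b, it was highest in control 2 and lowest in pre-AML 3.

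Among the pathway genes with an unadjusted p under 0.05, none of which passed the adjustment, Rab1a had a log2 fold change of -0.44, Uso1, a tether of COPII vesicles, -0.42, Cnih1, a cargo receptor, -0.37, Trappc2 -0.70 and Trappc6a 0.32. Trappc2 had 35.6, 33.6 and 33.9 FPKM in the controls and 30.02, 22.4 and 13.2 FPKM in pre-AML platelets. Trappc6a, of the same complex, had 41.5, 39.2 and 40.3 FPKM in the pre-AML libraries, all above the highest control at 35.5 FPKM. The groups did not overlap for Trappc2, with lower pre-AML values, or for Trappc6a, with higher ones. Of all genes tested, 12.8% were lower and 6.14% higher in pre-AML platelets without overlap.

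On chromosome 11, Sar1b and Sec24a are neighbours on opposite strands. GENCODE M21 places the start of Sar1b at 51763687 and the end of the Sec24a gene model, on the minus strand, at 51763634. The RefSeq promoter window searched for Sec24a, at chr11:51756785-51757084, belongs to another start farther from Sar1b. Their control means, 47.6 and 0.0266 FPKM, were the highest and the lowest of the 10 members.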
